A study of Mus musculus with 24 samples.

Results

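The conjugating enzymes of the liver were examined as 49 genes, 18 of the glutathione S-transferase (Gst) family, 10 of the UDP-glucuronosyltransferase (Ugt) family and 21 of the sulfotransferase (Sult) family, of 22180 genes that alone name a probe set, on an array of 41345 probe sets. They were every gene of the soluble Gst classes alpha, kappa, mu, omega, pi and theta, of the Ugt2 and Ugt3 subfamilies and of the Sult family that had a probe set annotated to 1 gene symbol only, and each had 1 such probe set. The zeta class and the Ugt1a enzymes, which include the bilirubin transferase, were covered only by probe sets annotated to several genes and so have no member here. RNA came from whole livers of male C57BL/6J mice, an inbred strain, fed a control diet or a high-fat diet (HFD) for 8 or 12 weeks, with 4 mice in each of 6 diet-by-week groups and 1 mouse per array. The HFD-corn oil mice received fat from corn oil and coconut oil, and in the HFD-EPA/DHA diet oils rich in eicosapentaenoic acid (EPA) and docosahexaenoic acid (DHA), both n-3 fatty acids, took the place of part of the corn oil. Both HFDs also carried added cholesterol and more sucrose and protein by weight than the control diet, so a difference from control belongs to the whole diet. The mice were 9 weeks old at the start of the 8-week study and 10 weeks old at the start of the 12-week study. Because these were separate studies, time on the diet and study cannot be told apart. The mice put on arrays had been selected by body weight and plasma lipids, and mice shared cages.

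Conjugation is the step of detoxification in which a small polar group is attached to a drug, hormone, bile acid or reactive lipid so that it can leave the cell. Gst enzymes attach glutathione to electrophiles such as the aldehydes formed when polyunsaturated fatty acids are oxidized. Ugt enzymes attach glucuronic acid, taken from UDP-glucuronic acid, and Sult enzymes attach sulfate, taken from the donor PAPS. In rodent liver many of these genes are controlled by the nuclear receptors CAR and PXR and by the oxidant sensor NRF2, and several differ in level between males and females.

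One array, HFD-corn oil replicate 3 at 8 weeks, was left out of the main fit, as the study also did. Its mean correlation with its own group was 0.941, against 0.973 to 0.989 for the other arrays, and its values are given beside the members they touch. All values are log2 signal. Array medians lay between 7.14 and 7.21, and of the members 31 lay above the median probe set (7.16) and 18 below it. The bright members were 16 of the 18 Gst genes, 9 of the 10 Ugt genes and 6 of the 21 Sult genes. In whole liver, fewer cells of a type and less RNA per cell cannot be told apart.

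Both HFDs were compared with control, to ask how the conjugating enzymes differed with each whole diet, and with each other, for the source of the fat. Relative to control, 6 members changed in HFD-EPA/DHA mice and 5 in HFD-corn oil mice when the 2 times were averaged, and no member passed the test between the HFDs. In HFD-EPA/DHA mice Gsta4, Gsto1, Ugt2b35, Ugt3a1 and Sult1b1 were higher and Sult1a1 was lower. In HFD-corn oil mice Gsta4, Gstk1, Ugt2b35, Ugt3a1 and Sult1b1 were higher. Changes were small, between 1.21-fold and 1.43-fold upwards and 0.744-fold downwards. A member was called changed at an adjusted p under 0.05 in limma, with Benjamini-Hochberg adjustment over all 41345 probe sets. Of all probe sets, 0.774% were called higher and 1.33% lower in the averaged HFD-EPA/DHA comparison, and 0.745% higher and 1.17% lower in the averaged HFD-corn oil comparison. Since most members were bright, the calls can also be set against probe sets above the median, of which 3.12% and 2.56% were called in either direction. The HFDs share the same control mice, so their results are not independent of each other.

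At single times fewer members passed. At 8 weeks Gsto1 and Ugt2b35 were called higher in HFD-EPA/DHA mice, where 0.14% of all probe sets were higher and 0.302% lower, and Ugt3a1 was called higher in HFD-corn oil mice, where 0.177% were higher and 0.561% lower. At 12 weeks Ugt2b35 alone was called, higher in HFD-EPA/DHA mice, where 0.3% of all probe sets were higher and 0.317% lower. HFD-corn oil mice had 0 called members at 12 weeks by limma, against 0.179% of all probe sets. Without adjustment, p was under 0.05 for 9 of the 49 members in HFD-EPA/DHA mice (8.05% of all probe sets) and 10 in HFD-corn oil mice (8.23%) at 8 weeks. At 12 weeks the numbers were 12 in HFD-EPA/DHA mice (8.44%) and 7 in HFD-corn oil mice (8.53%). Averaged over time they were 12 (9.98%) and 12 (12.2%), and in each of these 11 were higher and 1 lower. Among probe sets above the median the unadjusted shares were larger, at 10.2% and 9.12% at 8 weeks and 10.5% and 10.6% at 12 weeks. Averaged over time they were 13.5% and 15.2%. Called in either direction were 0.74% and 0.822% of these brighter probe sets at 8 weeks, and 1.12% and 0.334% at 12 weeks.

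**Figure D1:**
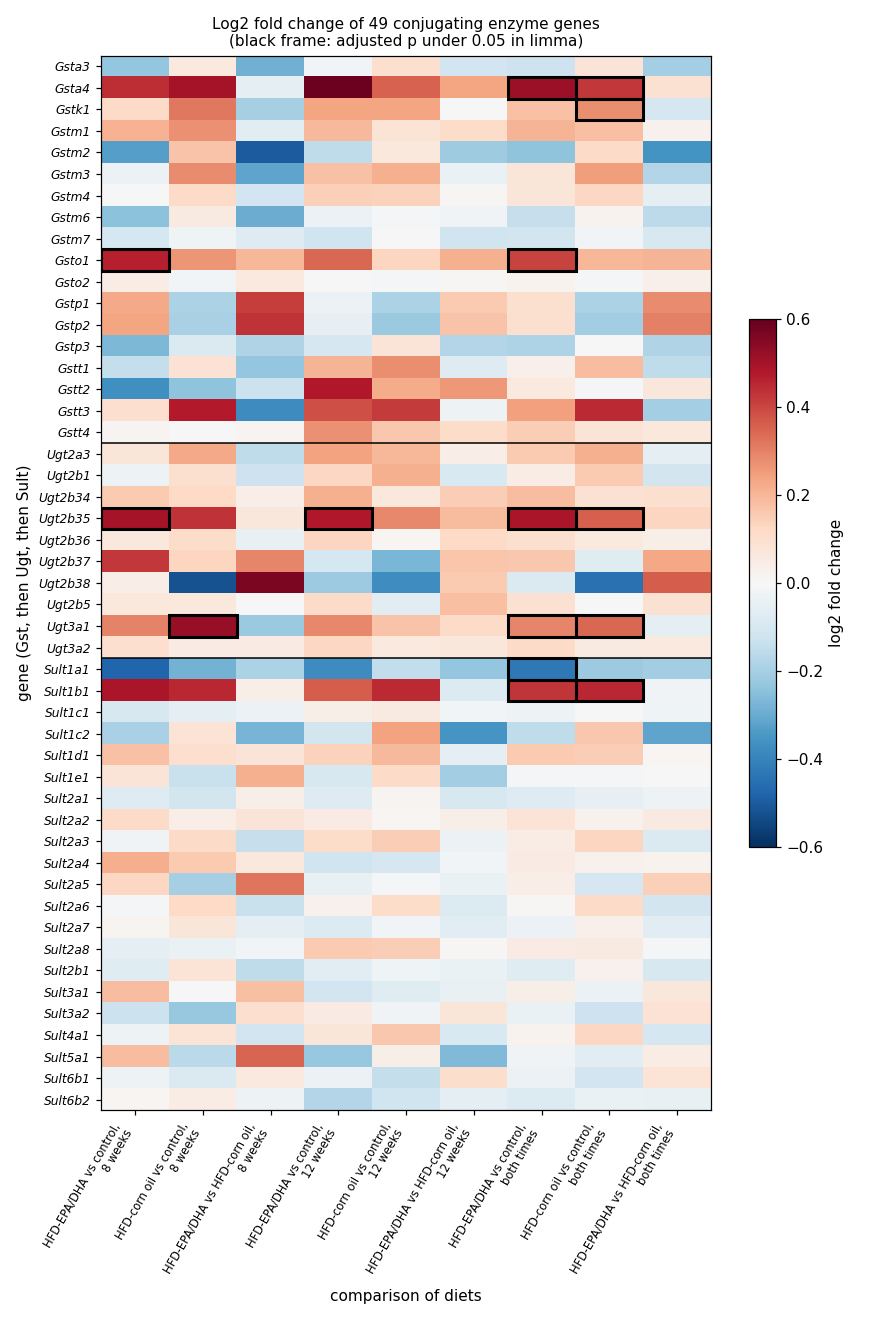
Log2 fold change of each of the 49 members (rows, by family) in the comparisons of diets (columns); colour gives the size and direction, and a black frame shows an adjusted p under 0.05 in limma. The framed cells lie in comparisons with control, and none lies in a comparison of the 2 HFDs.

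Among the glutathione transferases, Gsto1 rose in HFD-EPA/DHA mice. It encodes the omega-class enzyme, which uses glutathione to reduce substrates such as dehydroascorbate and methylated arsenic. At 8 weeks its signal was 11.02, 11.00, 10.87 and 10.82 in control mice, 11.21, 11.43, 11.55 and 11.38 in HFD-EPA/DHA mice and 11.22, 11.12 and 11.24 in HFD-corn oil mice. The 12-week signals were 11.21, 10.81, 11.05 and 10.92 in control mice, 11.25, 11.26, 11.52 and 11.34 in HFD-EPA/DHA mice and 10.97, 11.09, 11.20 and 11.27 in HFD-corn oil mice. The HFD-EPA/DHA mice lay above all control mice at both times, and the HFD-corn oil mice overlapped with control at 12 weeks. The difference from control was 0.46 (SE 0.096, adjusted p = 0.0227) at 8 weeks and 0.40 (SE 0.068, adjusted p = 0.000971) over both times, a 1.32-fold higher level. The averaged difference in HFD-corn oil mice was 0.20 (adjusted p = 0.2). HFD-EPA/DHA minus HFD-corn oil was 0.21 with a 95% interval of 0.061 to 0.35 (adjusted p = 0.516), so the difference between the HFDs did not pass the test. The call at 8 weeks was lost in 5 of 23 fits that each left out 1 array, all of them control or HFD-EPA/DHA replicates of that time, with adjusted p up to 0.109 without control replicate 4.

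Gsta4 rose with both HFDs. This alpha-class enzyme conjugates 4-hydroxynonenal, an aldehyde from oxidized n-6 fatty acids. Its signal at 8 weeks was 9.94, 10.62, 10.18 and 10.33 in control mice, 10.40, 10.93, 10.85 and 10.64 in HFD-EPA/DHA mice and 10.76, 10.82 and 10.72 in HFD-corn oil mice. At 12 weeks it was 10.47, 9.99, 10.56 and 10.67 in control mice, 11.08, 11.09, 11.19 and 10.68 in HFD-EPA/DHA mice and 10.59, 10.80, 10.73 and 10.98 in HFD-corn oil mice. Control mice spread widely, with a low mouse at each time (9.94 and 9.99). They overlapped with HFD-EPA/DHA mice at 8 weeks and with HFD-corn oil mice at 12 weeks. HFD-corn oil mice in the fit stood above control at 8 weeks, and at 12 weeks the lowest HFD-EPA/DHA mouse (10.68) stood just above the highest control mouse (10.67). Over both times Gsta4 was 1.43-fold higher in HFD-EPA/DHA mice (0.51, SE 0.11, adjusted p = 0.0071) and 1.34-fold higher in HFD-corn oil mice (0.42, SE 0.11, adjusted p = 0.0468). Between the HFDs the difference was 0.090 (95% interval −0.14 to 0.32). The HFD-EPA/DHA call held in all 23 fits that left out 1 array. The HFD-corn oil call was lost in 16 of them, with adjusted p up to 0.126 without HFD-corn oil replicate 2 at 8 weeks.

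Gstk1, the kappa-class enzyme of mitochondria and peroxisomes, was higher in HFD-corn oil mice. At 8 weeks the signal was 12.29, 12.35, 12.33 and 12.21 in control mice, 12.44, 12.40, 12.46 and 12.35 in HFD-EPA/DHA mice and 12.59, 12.71 and 12.52 in HFD-corn oil mice. The 12-week signals were 12.32, 12.17, 12.29 and 12.43 in control mice, 12.64, 12.62, 12.50 and 12.38 in HFD-EPA/DHA mice and 12.60, 12.58, 12.47 and 12.52 in HFD-corn oil mice. All 7 HFD-corn oil mice in the fit lay above all control mice, while the HFD-EPA/DHA mice met or overlapped the control range. The averaged difference from control was 0.28 (SE 0.056, adjusted p = 0.00815) in HFD-corn oil mice and 0.18 (adjusted p = 0.111) in HFD-EPA/DHA mice. HFD-EPA/DHA minus HFD-corn oil was −0.10 (95% interval −0.22 to 0.015).

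The other Gst genes gave no call. The averaged log2 differences of the whole family ran from −0.24 to 0.51 in HFD-EPA/DHA mice and from −0.21 to 0.45 in HFD-corn oil mice. Gstt3 and Gstt2, of the theta class, had the most variable signals of the family (within-group SD 0.37 and 0.35). Gstt3 was 0.45 higher in HFD-corn oil mice over both times (adjusted p = 0.235), and Gstt2 was 0.48 higher in HFD-EPA/DHA mice at 12 weeks (adjusted p = 0.555). At 8 weeks Gstt2 had instead the lowest difference of the family, −0.37 with HFD-EPA/DHA and −0.24 with HFD-corn oil. In control mice the Gstt2 signal was 10.34, 10.66, 10.69 and 10.13 at 8 weeks and 10.15, 9.25, 9.94 and 10.02 at 12 weeks, with 1 mouse far below the others. The mu and pi classes hold near-identical genes, whose probes can be shared, so Gstm2 and Gstp2 cannot be taken as measured apart from their neighbours.

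A further signal came from a probe set annotated to Gm3776, Gm10639, Gsta1 and Gsta2 together, which the selection left out because it has several symbols, and which was picked here after its values were seen. Alpha-class enzymes of this kind are textbook targets of NRF2. At 8 weeks it read 9.45, 9.96, 9.43 and 9.36 in control mice, 10.78, 11.21, 11.24 and 10.87 in HFD-EPA/DHA mice and 11.38, 11.01 and 11.01 in HFD-corn oil mice. At 12 weeks it read 9.97, 9.15, 9.73 and 10.26 in control mice, 11.58, 11.72, 11.52 and 10.80 in HFD-EPA/DHA mice and 10.97, 11.21, 10.89 and 11.25 in HFD-corn oil mice. Every HFD mouse was above every control mouse. Over both times the level was 2.93-fold higher in HFD-EPA/DHA mice (log2 1.55, adjusted p = 3.9e-07) and 2.72-fold higher in HFD-corn oil mice (log2 1.44, adjusted p = 4.06e-06), and it passed at each time too. The HFDs differed by 0.11 (95% interval −0.20 to 0.41). A probe set annotated to Gsta1, Gm3776 and Gsta2 moved far less (0.27, adjusted p = 0.0385 with HFD-EPA/DHA, and 0.16, adjusted p = 0.366 with HFD-corn oil). The probe set annotated to Gsta2, Gsta1 and Gm10639 was at 0.081 and 0.051 (adjusted p = 0.787 and 0.825). Which of these genes moved therefore cannot be read from the array. The probe set annotated to Gstm5 and 4933431E20Rik was at −0.28 with HFD-EPA/DHA and −0.27 with HFD-corn oil over both times (adjusted p = 0.0793 and 0.106). Between the HFDs its averaged difference was −0.0037 (95% interval −0.17 to 0.17). At 8 weeks it was at −0.055 and −0.27 (adjusted p = 0.967 and 0.539). At 12 weeks it was called lower in HFD-EPA/DHA mice (−0.50, adjusted p = 0.0362), with HFD-corn oil mice at −0.27 (adjusted p = 0.495). Leaving out 1 array lost this call in 7 of 23 fits (adjusted p up to 0.158, without control replicate 3 at 12 weeks) and that of Gsta1, Gm3776 and Gsta2 in 10 (up to 0.105, without control replicate 4 at 8 weeks), and both were lost with all 24 arrays.

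**Figure D2:**
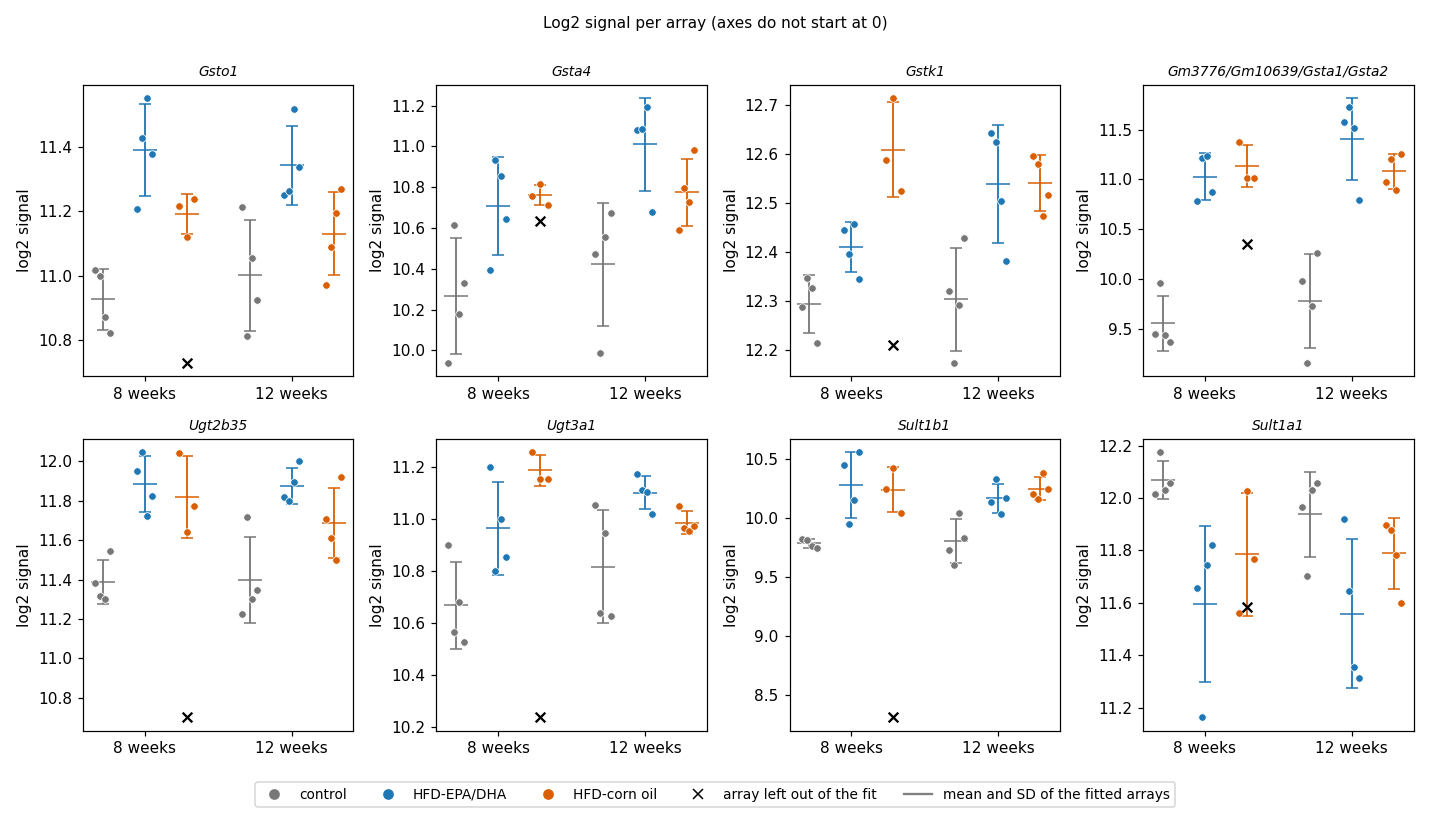
Log2 signal (y axes, which do not start at 0) of the 7 members called in any comparison and of the probe set annotated to Gm3776, Gm10639, Gsta1 and Gsta2, by week and diet; each point is 1 mouse, lines are the mean and SD of the arrays fitted, and the cross is the array left out of the fit. The panel of Sult1a1 has its lowest points in HFD-EPA/DHA mice, and the cross of Sult1b1 lies at 8.31, below all other mice.

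Among the glucuronosyltransferases, Ugt2b35 rose with both HFDs. It belongs to the Ugt2b subfamily, whose enzymes act on steroids, bile acids, fatty acids and drugs. At 8 weeks its signal was 11.38, 11.31, 11.30 and 11.55 in control mice, 11.95, 12.05, 11.72 and 11.82 in HFD-EPA/DHA mice and 12.05, 11.64 and 11.77 in HFD-corn oil mice. At 12 weeks it was 11.22, 11.72, 11.30 and 11.35 in control mice, 11.82, 11.80, 11.89 and 12.00 in HFD-EPA/DHA mice and 11.71, 11.61, 11.50 and 11.92 in HFD-corn oil mice. The HFD-EPA/DHA mice were above all control mice at both times, and a single control mouse (11.72) reached into the HFD-corn oil range at 12 weeks. The difference from control in HFD-EPA/DHA mice was 0.50 (SE 0.11, adjusted p = 0.0441) at 8 weeks, 0.48 (SE 0.11, adjusted p = 0.0479) at 12 weeks and 0.49 (SE 0.08, adjusted p = 0.000692) over both. With HFD-corn oil it was 0.36 over both times (SE 0.083, adjusted p = 0.0204), a 1.28-fold higher level. Between the HFDs the difference was 0.13 (95% interval −0.042 to 0.30). Each single-time call stood close to the threshold and was lost in 14 of 23 fits that left out 1 array at 8 weeks (adjusted p up to 0.186, without HFD-EPA/DHA replicate 2 at 8 weeks) and in 15 at 12 weeks (adjusted p up to 0.151, without control replicate 3 at 12 weeks), while the averaged HFD-EPA/DHA call was lost in none. The averaged HFD-corn oil call was lost without HFD-corn oil replicate 1 at 8 weeks (0.30, adjusted p = 0.0875) and without HFD-corn oil replicate 4 at 12 weeks (0.32, adjusted p = 0.0503).

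Ugt3a1 also rose with both HFDs. The human enzyme of this name transfers N-acetylglucosamine instead of glucuronic acid. At 8 weeks the signal was 10.90, 10.56, 10.68 and 10.53 in control mice, 11.20, 10.80, 11.00 and 10.86 in HFD-EPA/DHA mice and 11.26, 11.15 and 11.15 in HFD-corn oil mice. The 12-week signals were 11.05, 10.64, 10.95 and 10.62 in control mice, 11.17, 11.11, 11.10 and 11.02 in HFD-EPA/DHA mice and 11.05, 10.96, 10.95 and 10.97 in HFD-corn oil mice. The HFD-corn oil mice stood clear of control at 8 weeks and overlapped with it at 12 weeks. In HFD-corn oil mice the difference from control was 0.52 (SE 0.11, adjusted p = 0.0298) at 8 weeks and 0.35 (SE 0.076, adjusted p = 0.0147) over both times. In HFD-EPA/DHA mice it was 0.29 over both times (SE 0.073, adjusted p = 0.031). The change of the HFD-corn oil difference between the times was −0.35 (unadjusted p = 0.0293, adjusted p = 1) and did not pass. The HFDs differed by −0.054 over both times (95% interval −0.21 to 0.10). Leaving out 1 array lost the 8-week call in 6 of 23 fits (adjusted p up to 0.173, without HFD-corn oil replicate 1), the averaged HFD-EPA/DHA call in 10 (up to 0.0861, without control replicate 4 at 12 weeks) and the averaged HFD-corn oil call without HFD-corn oil replicate 1 at 8 weeks (0.33, adjusted p = 0.0518).

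The remaining 8 Ugt genes gave no call, and Ugt2b1, the brightest member, was 0.16 higher in HFD-corn oil mice over both times (adjusted p = 0.243). Ugt2b37 and Ugt2b38 varied most between mice of a group of all members (within-group SD 0.58 each). Ugt2b38 ran from 6.56 in the left-out array to 8.83 in HFD-EPA/DHA replicate 2 at 8 weeks, and the same mouse had the highest Ugt2b37 signal (8.74). Its largest positive and negative differences, 0.57 between the HFDs at 8 weeks and −0.52 in HFD-corn oil mice at 8 weeks, did not pass the test (adjusted p = 0.777 and 0.796). Single HFD-corn oil mice of that time set their size, with 0.25 and −0.21 without replicate 4 and 0.92 and −0.88 without replicate 1.

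Ugt2b35 and Sult1b1 are members of 1 gene cluster. By the RefSeq order of genes on GRCm38.p6, 8 Ugt and 3 Sult members follow each other on chromosome 5 as Ugt2b34, Ugt2b1, Ugt2b35, Ugt2b36, Ugt2b5, Ugt2b37, Ugt2a3, Ugt2b38, Sult1b1, Sult1d1 and Sult1e1, and only Ugt2a1 and Ugt2a2, which share a probe set, stand between them as other protein-coding genes. Of these 11 members only Ugt2b35 and Sult1b1 were called in any comparison. Next in line was Ugt2b34, at 0.19 in HFD-EPA/DHA mice over both times (adjusted p = 0.0908). Sult1d1 and Sult1e1, the neighbours of Sult1b1, gave no call.

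**Figure D3:**
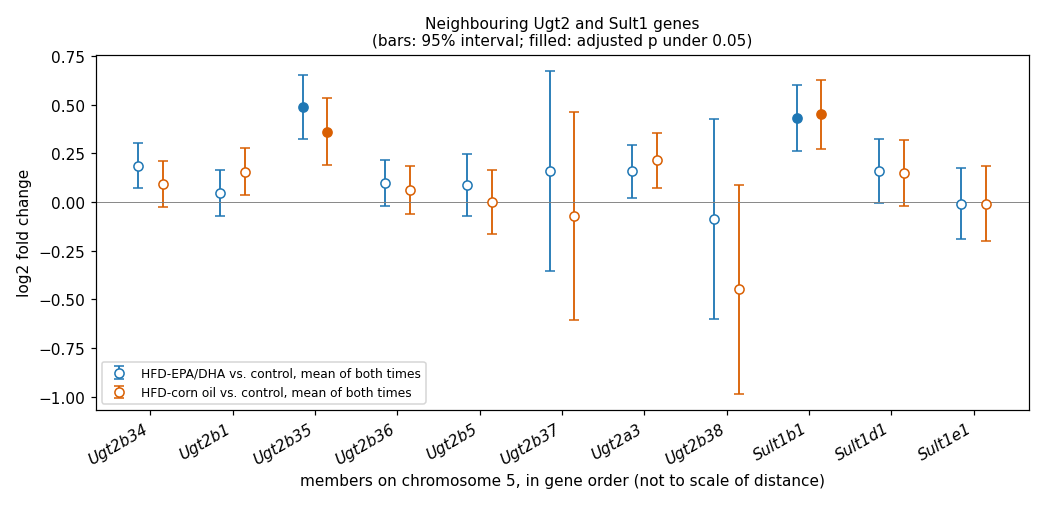
Log2 fold change of the 11 neighbouring Ugt and Sult members of chromosome 5 against control over both times, in gene order along the x axis, with bars for the 95% interval, 1 colour per HFD and filled points where the adjusted p was under 0.05. The filled points are those of Ugt2b35 and Sult1b1, and Ugt2b37 and Ugt2b38 have the widest intervals.

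Promoter sequences, defined as 250 bases before and 50 after a start site, were taken from RefSeq (GRCm38.p6) for 42 of the 49 members. They were searched on both strands for 5 short motifs, AGGTCA (the half-site of many nuclear receptors), GTTAAT (a half-site of HNF1), CAAAGTCCA (a site of HNF4A), TGACNNNGC (the core of the antioxidant response element) and GCGTG (the core of the dioxin response element), and no matches overlapped in the promoters printed. A gene can have several start sites, and the 42 members had 52 promoters. AGGTCA was found in 10 of these 52 and in 16.3% of all 32851 promoters, and among the 7 Ugt2b promoters, 1 per gene, in 5. TGACNNNGC was found in 2 of the 52 (12.4% of all promoters), GTTAAT in 10 (7.1%), GCGTG in 8 (32.4%) and CAAAGTCCA in 1, of Sult1b1 (0.475%). The promoters of 3 Ugt2b genes are shown so that the called gene can be set beside uncalled neighbours that hold the same half-site, marked in capitals. AGGTCA lies at −215 to −210 from the start of Ugt2b35 and at −25 to −20 in both Ugt2b36 and Ugt2b38. Position by position, Ugt2b35 matched Ugt2b38 at 42% and Ugt2b36 at 30.7% of bases, and Ugt2b36 matched Ugt2b38 at 44%. Over all pairs of the 7 Ugt2b promoters this share ran from 23.7% to 44%. The count allows no gaps, so a shift of 1 base breaks a match. It therefore does not measure how alike the promoters would be when aligned. These matches describe the letters only.
Ugt2b35, chr5:87000610-87000909, plus strand: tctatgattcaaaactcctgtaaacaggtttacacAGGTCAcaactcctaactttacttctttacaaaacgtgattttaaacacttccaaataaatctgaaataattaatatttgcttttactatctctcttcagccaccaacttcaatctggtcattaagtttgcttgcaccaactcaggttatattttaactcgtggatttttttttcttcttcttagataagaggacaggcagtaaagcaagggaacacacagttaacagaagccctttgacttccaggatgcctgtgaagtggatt
Ugt2b36, chr5:87092506-87092805, minus strand: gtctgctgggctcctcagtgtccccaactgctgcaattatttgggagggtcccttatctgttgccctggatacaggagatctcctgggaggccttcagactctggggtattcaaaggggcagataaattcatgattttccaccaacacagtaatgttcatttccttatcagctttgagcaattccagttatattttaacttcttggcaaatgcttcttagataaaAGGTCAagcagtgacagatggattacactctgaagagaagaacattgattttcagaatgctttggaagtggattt
Ugt2b38, chr5:87424154-87424453, minus strand: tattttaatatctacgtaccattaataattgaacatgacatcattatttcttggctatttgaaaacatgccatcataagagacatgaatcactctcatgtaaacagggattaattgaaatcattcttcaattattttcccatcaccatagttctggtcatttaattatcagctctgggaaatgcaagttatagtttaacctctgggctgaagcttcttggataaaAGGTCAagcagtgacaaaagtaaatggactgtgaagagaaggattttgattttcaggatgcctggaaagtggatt

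The promoter of Ugt3a1, the other called Ugt gene, is shown for contrast. It held no AGGTCA and a GTTAAT match on the reverse strand at −123 to −118, which is in capitals.
Ugt3a1, chr15:9279579-9279878, plus strand: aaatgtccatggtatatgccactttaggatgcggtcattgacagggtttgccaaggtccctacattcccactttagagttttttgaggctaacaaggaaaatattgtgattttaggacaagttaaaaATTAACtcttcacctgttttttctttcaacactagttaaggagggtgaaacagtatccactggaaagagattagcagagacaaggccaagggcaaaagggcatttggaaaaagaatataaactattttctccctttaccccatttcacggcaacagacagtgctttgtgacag

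Among the sulfotransferases, Sult1b1 rose with both HFDs. It encodes an enzyme for phenols and thyroid hormones. At 8 weeks the signal was 9.82, 9.81, 9.77 and 9.74 in control mice, 10.45, 9.95, 10.15 and 10.55 in HFD-EPA/DHA mice and 10.25, 10.42 and 10.04 in HFD-corn oil mice. At 12 weeks it was 9.73, 9.60, 10.04 and 9.83 in control mice, 10.13, 10.33, 10.03 and 10.17 in HFD-EPA/DHA mice and 10.21, 10.16, 10.38 and 10.25 in HFD-corn oil mice. All HFD mice in the fit lay above control at 8 weeks, and at 12 weeks the highest control mouse (10.04) met the lowest HFD-EPA/DHA mouse (10.03). Over both times Sult1b1 was 1.35-fold higher in HFD-EPA/DHA mice (0.43, SE 0.082, adjusted p = 0.00383) and 1.37-fold higher in HFD-corn oil mice (0.45, SE 0.085, adjusted p = 0.00517), and both calls held in all 23 fits that left out 1 array. The HFDs differed by −0.022 (95% interval −0.20 to 0.15). In the array left out of the fit Sult1b1 read 8.31, and with that array the averaged HFD-corn oil difference was 0.21 (adjusted p = 0.741). RefSeq gives Sult1b1 2 start sites, and both promoters are shown. The first has AGGTCA matches at −123 to −118, on the reverse strand, and at 39 to 44 after the start. The second has CAAAGTCCA at 26 to 34 after the start and a GCGTG match at −196 to −192, all in capitals.
Sult1b1, first start, chr5:87538146-87538445, minus strand: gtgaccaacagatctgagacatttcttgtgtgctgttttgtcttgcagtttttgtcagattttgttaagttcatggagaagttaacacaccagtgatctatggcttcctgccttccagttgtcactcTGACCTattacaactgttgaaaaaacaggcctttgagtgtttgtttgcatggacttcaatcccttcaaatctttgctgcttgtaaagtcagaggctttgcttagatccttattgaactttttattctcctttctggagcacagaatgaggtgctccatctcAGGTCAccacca
Sult1b1, second start, chr5:87536173-87536472, minus strand: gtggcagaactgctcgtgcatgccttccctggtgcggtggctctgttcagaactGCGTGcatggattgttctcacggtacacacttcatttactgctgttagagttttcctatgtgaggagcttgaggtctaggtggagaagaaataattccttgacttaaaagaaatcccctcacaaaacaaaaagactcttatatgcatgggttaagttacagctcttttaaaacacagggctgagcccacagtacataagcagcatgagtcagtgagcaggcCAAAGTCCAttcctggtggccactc

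Sult1a1, the main phenol sulfotransferase of liver, was the only member called lower. At 8 weeks the signal was 12.01, 12.17, 12.03 and 12.06 in control mice, 11.66, 11.16, 11.74 and 11.82 in HFD-EPA/DHA mice and 11.56, 12.03 and 11.77 in HFD-corn oil mice. The 12-week signals were 11.97, 11.70, 12.03 and 12.06 in control mice, 11.92, 11.65, 11.36 and 11.31 in HFD-EPA/DHA mice and 11.90, 11.88, 11.78 and 11.60 in HFD-corn oil mice. The HFD-EPA/DHA mice were below control at 8 weeks and overlapped with it at 12 weeks. The averaged level in HFD-EPA/DHA mice was 0.744-fold that of control (−0.43, SE 0.098, adjusted p = 0.0171), while neither single time passed (−0.47, adjusted p = 0.163, and −0.38, adjusted p = 0.359). The averaged difference in HFD-corn oil mice was −0.22 (adjusted p = 0.394). The HFDs differed by −0.21 (95% interval −0.42 to 0.0014).

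The array left out of the fit was low for several of these genes. It read 10.73 for Gsto1, 12.21 for Gstk1, 10.70 for Ugt2b35, 10.24 for Ugt3a1, 8.31 for Sult1b1 and 10.64 for Gsta4, each below the other HFD-corn oil mice of its time, and 11.58 for Sult1a1, within their range. With all 24 arrays fitted, only Gsta4, Gsto1 and Sult1a1 were called in HFD-EPA/DHA mice over both times (Ugt2b35 had an adjusted p of 0.0507), and 0 members were called in HFD-corn oil mice by limma. The HFD-EPA/DHA differences themselves stayed at the same size, since that array is in neither group, but the spread shared by all groups was larger. Of these 7 genes Sult1b1 changed most, from 0.45 to −0.029 in HFD-corn oil mice at 8 weeks.

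The other 19 Sult genes gave no call, and 15 of the 21 Sult genes lay below the median probe set. Averaged over both times, the family spanned −0.43 to 0.43 in HFD-EPA/DHA mice and −0.22 to 0.45 in HFD-corn oil mice. The largest uncalled differences at single times outside Sult1a1 and Sult1b1 lay between the HFDs, for Sult5a1 at 8 weeks (0.35, adjusted p = 0.771) and for Sult1c2 at 12 weeks (−0.35, adjusted p = 1). The Sult5a1 difference was 0.12 without HFD-corn oil replicate 4 at 8 weeks and 0.54 without replicate 1. Sult6b1, at the dim end, differed by at most 0.14 in size, in HFD-corn oil mice at 12 weeks (−0.14, adjusted p = 0.799). The 8 Sult2a genes, female-biased in mouse liver for the most part, are close copies that can share probes.

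Set side by side, Gst had 3 called members, Ugt 2 and Sult 2, and no test compared the families. Averaged over both times, the median difference from control was 0.072 for Gst, 0.14 for Ugt and −0.0090 for Sult in HFD-EPA/DHA mice, beside −0.0017 over all probe sets. In HFD-corn oil mice it was 0.099 for Gst, 0.076 for Ugt and 0.026 for Sult, beside −0.020. These medians are those of the 23 arrays fitted. With all 24 arrays the HFD-corn oil median turned below 0 over both times for Ugt (−0.046) and Sult, and at 8 weeks to −0.14 for Ugt and −0.029 for Sult. In the 23 arrays the Ugt genes above 0 were 9 of 10 in both HFDs at 8 weeks and 8 and 7 of 10 at 12 weeks in HFD-EPA/DHA and HFD-corn oil mice. Probe sets annotated to several Ugt genes are outside these counts. Over both times, that of Ugt1a10 and other Ugt1a genes was at −0.25 with HFD-EPA/DHA and −0.14 with HFD-corn oil. At 8 weeks it was at −0.55 with HFD-EPA/DHA (adjusted p = 0.103). Over both times that of Ugt2a1 and Ugt2a2 was at −0.17 and −0.11. That of Ugt1a1, Ugt1a6a, Ugt1a7c, Ugt1a6b and Ugt1a5 was at 0.11 and 0.035. The Gst genes above 0 were 10 and 12 of 18 at 8 weeks and 10 and 13 of 18 at 12 weeks. Sult genes were split, with 10 of 21 above 0 in HFD-EPA/DHA mice and 11 of 21 in HFD-corn oil mice over both times. The families also differ in brightness. Among members above the median probe set, the averaged medians were 0.072 for Gst, 0.11 for Ugt and 0.014 for Sult in HFD-EPA/DHA mice. In HFD-corn oil mice they were 0.12, 0.092 and 0.10, so there Sult did not stand apart.

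**Figure D4:**
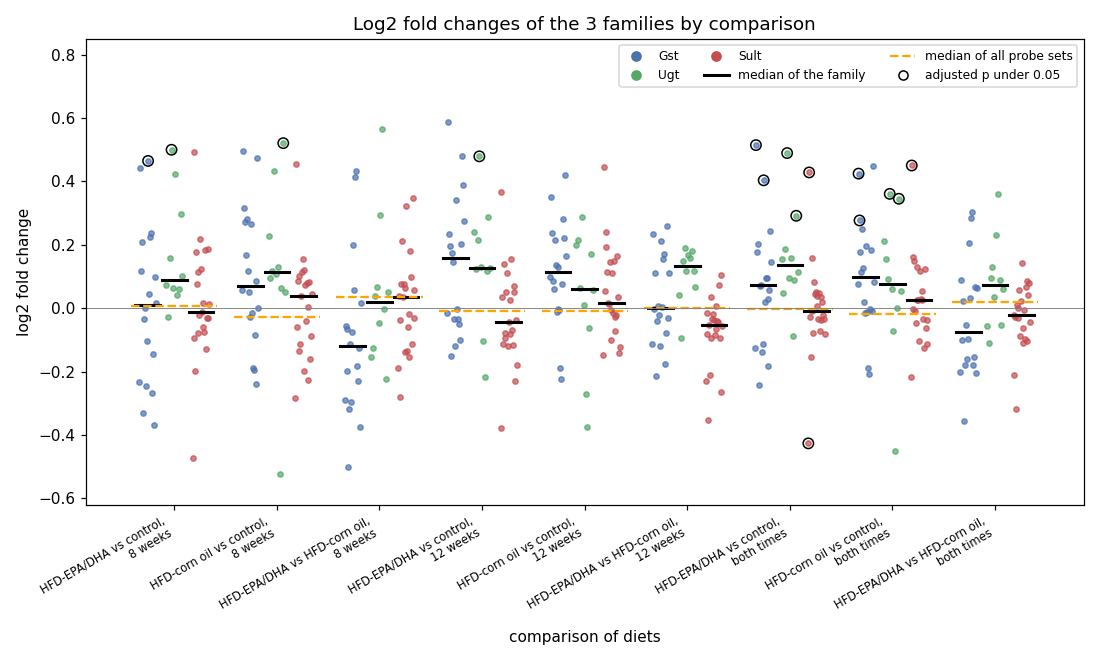
Log2 fold change of every member of the 3 families (columns of points) in each comparison of diets; each point is 1 gene, black bars are family medians, dashed lines are the median of all probe sets, and ringed points have an adjusted p under 0.05. In the 23 arrays fitted, Ugt medians against control lie between 0.061 and 0.14 and Sult medians between −0.044 and 0.038, and with all 24 arrays the HFD-corn oil medians at 8 weeks turn to −0.14 and −0.029.

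Between the HFDs 0 members passed at either time or over both times by limma. Of all probe sets, 0.0266% passed at 8 weeks, 0.00967% at 12 weeks and 0.0653% over both. Unadjusted p was under 0.05 for 7 members at 8 weeks (6.92% of all probe sets), 1 at 12 weeks (4.63%) and 6 over both (7.21%), and 6 of the 7 at 8 weeks were Gst genes. The Gst median at 8 weeks was −0.12 (13 of 18 below 0), against 0.034 over all probe sets. Within it the named genes went both ways, with Gstm2 at −0.50 and Gstp2 at 0.43 (adjusted p = 0.687 each). Gstm2 read 10.49, 9.61, 10.04 and 10.34 in HFD-EPA/DHA mice and 10.56, 10.67 and 10.64 in HFD-corn oil mice. At 12 weeks the Gst median was 0.0010.

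Time gave no call either. For the change of a diet difference from 8 to 12 weeks, 0 members and 0% of all probe sets passed, whichever pair of diets was taken. Unadjusted p was under 0.05 for 4 members (4.95% of all probe sets) when HFD-EPA/DHA was set against control, for 1 (3.64%) when HFD-corn oil was, and for 3 (4.46%) between the HFDs. Comparing 12 with 8 weeks within a diet, 0 members passed in control mice (0.00967% of all probe sets), HFD-EPA/DHA mice (0%) or HFD-corn oil mice (0%), with 3 (6.89%), 11 (5.49%) and 1 (3.32%) members at an unadjusted p under 0.05. In HFD-EPA/DHA mice those 11 were 4 higher and 7 lower at 12 weeks. The largest change of a difference was that of Gstt2 with HFD-EPA/DHA (0.85, unadjusted p = 0.0111, adjusted p = 0.983).

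The supply of cosubstrates was examined next, from lists of the genes that make and carry them. Beside the counts of this and the later lists, 0.774% of all probe sets were higher and 1.33% lower with HFD-EPA/DHA over both times. With HFD-corn oil 0.745% were higher and 1.17% lower. All these lists were chosen with earlier results of these data known, so their counts are descriptive only. For glucuronidation, 1 of 4 measured genes rose with each HFD over both times, and this was Ugdh, which makes UDP-glucuronic acid. Ugdh read 11.20, 10.99, 11.16 and 11.04 in control mice at 8 weeks and 10.93, 11.25, 11.23 and 11.17 at 12 weeks. In HFD-EPA/DHA mice it read 11.64, 11.73, 11.36 and 11.36 at 8 weeks and 11.69, 11.67, 11.80 and 11.49 at 12 weeks. In HFD-corn oil mice it read 11.75, 11.52 and 11.64 at 8 weeks and 11.36, 11.37, 11.62 and 11.61 at 12 weeks. Every HFD mouse in the fit was above every control mouse. The averaged difference was 0.47 (SE 0.073, adjusted p = 0.000364) with HFD-EPA/DHA and 0.44 (SE 0.076, adjusted p = 0.00218) with HFD-corn oil. For glutathione, 2 of 7 genes rose with HFD-EPA/DHA and 1 with HFD-corn oil. Gss, glutathione synthetase, was 0.27 higher (adjusted p = 0.0335) and 0.29 higher (adjusted p = 0.0275), calls lost in 11 (adjusted p up to 0.0918, without control replicate 4 at 12 weeks) and 9 (up to 0.0749, without HFD-corn oil replicate 2 at 8 weeks) of 23 fits that left out 1 array. Gclm, the modifier subunit of glutamate-cysteine ligase, was 0.24 higher with HFD-EPA/DHA (adjusted p = 0.00796). In HFD-corn oil mice Gclm read 11.81, 11.66 and 11.79 at 8 weeks and 11.55, 11.64, 11.70 and 11.67 at 12 weeks. Control mice read 11.47 to 11.67 and 11.48 to 11.66, with overlap at both times. Of 9 genes for sulfate and PAPS none rose, and Tpst1, which sulfates tyrosines of proteins in the Golgi, fell by 0.32 with HFD-corn oil (adjusted p = 0.0109). With all 24 arrays the calls of Ugdh with HFD-corn oil, of Gclm and of Gss with either HFD were lost.

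Conjugating enzymes outside the 3 families moved in both directions. Of 9 measured, Tpmt, a thiopurine methyltransferase, rose by 0.24 with HFD-EPA/DHA (adjusted p = 0.0154) and 0.35 with HFD-corn oil (adjusted p = 0.00126). Inmt, an indolethylamine methyltransferase, rose by 0.43 with HFD-corn oil (adjusted p = 0.0155, but 0.0589 without HFD-corn oil replicate 2 at 8 weeks). As3mt, which methylates arsenic, fell by 0.81 with HFD-EPA/DHA (SE 0.11, adjusted p = 4.32e-05). Its signal in HFD-EPA/DHA mice was 9.80, 9.66, 9.48 and 10.04 at 8 weeks and 9.92, 9.76, 9.31 and 9.35 at 12 weeks. Control mice read 10.27 to 10.52 and 10.35 to 10.70, with no overlap. HFD-corn oil mice in the fit read 9.71, 10.22 and 10.47 for As3mt at 8 weeks, which overlapped with control. At 12 weeks they read 10.25, 10.21, 10.13 and 9.94, below all control mice, so the lower level was not confined to HFD-EPA/DHA. Of 7 microsomal and related glutathione transferases, Mgst1 rose by 0.20 with HFD-corn oil (adjusted p = 0.0407), a call lost in 11 of 23 fits that left out 1 array (adjusted p up to 0.119, without HFD-corn oil replicate 2 at 8 weeks). With all 24 arrays the calls of Tpmt and Mgst1 were lost. Of 4 measured genes for the hydrolysis of conjugates, 0 were called by limma and 1 had an unadjusted p under 0.05 with each HFD.

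Of 11 transporters that export conjugates or take up organic anions, Abcc3 and Abcg2 rose with both HFDs over both times. Abcc3 exports glucuronides to the blood. It read 11.10, 11.53, 11.42 and 11.32 in control mice at 8 weeks and 11.30, 10.37, 10.89 and 11.21 at 12 weeks. In HFD-EPA/DHA mice it read 11.82, 11.55, 11.98 and 11.77 at 8 weeks and 12.16, 12.02, 12.06 and 11.72 at 12 weeks. In HFD-corn oil mice it read 11.76, 11.87 and 11.83 at 8 weeks and 11.74, 11.89, 11.70 and 11.58 at 12 weeks. Every HFD mouse was above every control mouse, the nearest being 11.55 and 11.53. The averaged difference was 0.74 with HFD-EPA/DHA (SE 0.1, adjusted p = 0.000112) and 0.63 with HFD-corn oil (SE 0.11, adjusted p = 0.00233). Abcg2, which sends sulfates and other substrates to bile, rose by 0.45 (adjusted p = 0.00783) and 0.41 (adjusted p = 0.0268). Slco1a1, a male-predominant uptake carrier, fell by 0.30 with HFD-EPA/DHA (adjusted p = 0.0241). Leaving out 1 array lost the HFD-corn oil call of Abcg2 in 9 of 23 fits (adjusted p up to 0.0934, without HFD-corn oil replicate 1 at 8 weeks) and the call of Slco1a1 in 7 (up to 0.064, without HFD-EPA/DHA replicate 2 at 8 weeks), and with all 24 arrays the calls of both genes were lost.

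**Figure D5:**
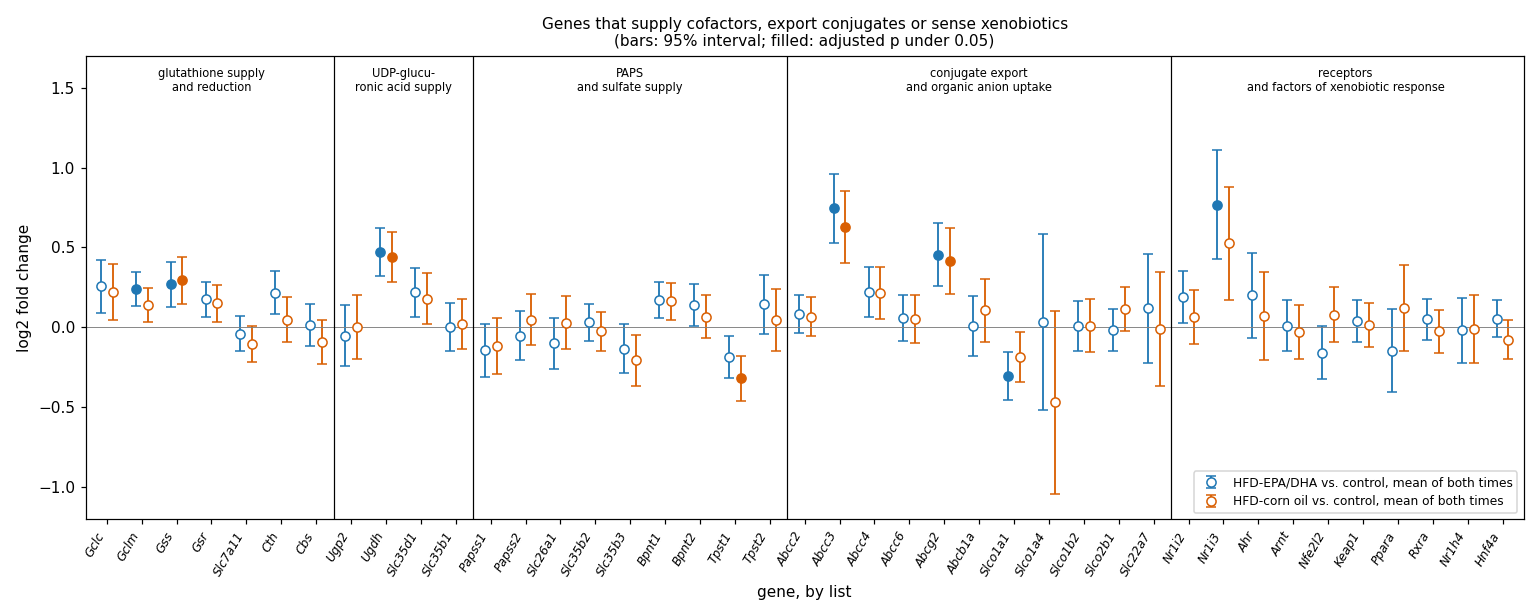
Log2 fold change against control over both times (y axis) of the listed genes for cosubstrate supply, export and uptake, and receptors (x axis, by list); points are the 2 HFDs, bars are 95% intervals, and filled points have an adjusted p under 0.05. Ugdh, Gss, Abcc3 and Abcg2 have filled points above 0 for both HFDs, and Gclm and Nr1i3 (0.77) for HFD-EPA/DHA only. Below 0, filled points are those of Tpst1 for HFD-corn oil and Slco1a1 for HFD-EPA/DHA.

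Among 10 receptors and factors of the xenobiotic response, Nr1i3, which encodes CAR, was the only one called. It read 10.43, 10.75, 10.90 and 10.22 in control and 10.90, 10.40, 11.51 and 11.26 in HFD-EPA/DHA mice at 8 weeks, with overlap. At 12 weeks it read 10.59, 9.66, 9.81 and 10.03 in control and 11.24, 11.10, 10.91 and 11.22 in HFD-EPA/DHA mice, with none. The difference was 1.09 at 12 weeks (SE 0.23, adjusted p = 0.0231) and 0.77 over both times (adjusted p = 0.00951). The 12-week call was lost in 6 of 23 fits that left out 1 array (adjusted p up to 0.1, without control replicate 2 at 12 weeks) and with all 24 arrays. With HFD-corn oil the difference was 0.53 over both times (adjusted p = 0.142). Of 8 measured target genes of CAR and PXR outside the 3 families, 5 rose and 1 fell with HFD-EPA/DHA, and 4 rose with HFD-corn oil. Cyp2a5 rose by 1.15 and 1.12 (adjusted p = 0.000982 and 0.00292), Cyp3a11 by 0.70 and 0.57 (adjusted p = 9.64e-05 and 0.00283), and Cyp2c55 fell by 1.08 with HFD-EPA/DHA (adjusted p = 0.00442). Of 10 NRF2 target genes, 3 rose with each HFD, and Me1, a lipogenic enzyme as well, fell with HFD-EPA/DHA (−0.70, adjusted p = 0.0182, but lost without control replicate 3 at 8 weeks or control replicate 4 at 12 weeks, with adjusted p up to 0.0544). The epoxide hydrolase Ephx1 rose by 0.61 and 0.50 (adjusted p = 7.09e-06 and 0.000222) and the quinone reductase Nqo1 by 0.59 and 0.47 (adjusted p = 0.0025 and 0.0258). The HFD-corn oil call of Nqo1 was lost in 7 of 23 fits that left out 1 array (adjusted p up to 0.0764, without HFD-corn oil replicate 2 at 8 weeks) and with all 24 arrays. Nqo1 was also the only one of 6 AhR target genes called. Of 8 PPARα target genes, 6 rose and 1 fell with HFD-EPA/DHA and 5 rose and 1 fell with HFD-corn oil, with medians of 0.62 and 0.61. The lists overlap in genes, and all comparisons with control use the same control mice. Of all probe sets, 0.774% were called higher and 1.33% lower with HFD-EPA/DHA over both times, and 0.745% and 1.17% with HFD-corn oil. Among probe sets above the median, 3.12% and 2.56% were called in either direction. The paper had already reported genes regulated by Pparα as induced by HFD-EPA/DHA on these arrays. The lists were chosen with earlier results known, so their counts do not test whether a list changed more than other genes. Receptor activity, and any link of these genes to the members, was not tested.

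Calls among markers of cell makeup, sex bias and zonation were also counted. Over both times, 0.774% of all probe sets were called higher and 1.33% lower with HFD-EPA/DHA, and 0.745% and 1.17% with HFD-corn oil. At an unadjusted p under 0.05 the shares over both times were 9.98% and 12.2%. Of 11 measured male-biased genes 1 fell and 0 rose with HFD-EPA/DHA, and of 9 measured female-biased genes 2 rose and 1 fell with each HFD. Of 9 pericentral markers 0 were called by limma with either HFD over both times (2 and 1 at an unadjusted p under 0.05), and of 8 periportal markers Cdh1 was lower with HFD-corn oil (−0.85, adjusted p = 0.0401), a call lost in 13 of 23 fits that left out 1 array (adjusted p up to 0.144, without HFD-corn oil replicate 2 at 8 weeks). Of 7 measured hepatocyte markers Apoa1 was lower with HFD-EPA/DHA (−0.28, adjusted p = 0.0443, lost in 16 of 23 such fits, with adjusted p up to 0.121 without control replicate 4 at 8 weeks), and their summed linear signal ran from 54984 to 57289 in control, 52821 to 55969 in HFD-EPA/DHA and 52830 to 54710 in HFD-corn oil mice at 8 weeks. At 12 weeks the sums ran from 55103 to 56960, 52345 to 53858 and 52529 to 54124, so HFD mice lay below control apart from an overlap of HFD-EPA/DHA mice at 8 weeks. Of 47 markers of other cells and tissues, 7 had an unadjusted p under 0.05 with HFD-EPA/DHA at 12 weeks (8.44% of all probe sets). Over both times 4 did with HFD-EPA/DHA (9.98%) and 3 with HFD-corn oil (12.2%). Fabp2, a fatty acid binding gene of the gut list, was the only one called over both times, at −0.62 with HFD-EPA/DHA vs. control (adjusted p = 0.000374) and −0.96 between the HFDs (adjusted p = 1.08e-05). At 8 weeks it was at −0.83 (adjusted p = 0.00271) and −1.26 (adjusted p = 0.000243). The summed linear signal of the 10 kidney, pancreas and gut markers moved with the diets, from 3072 to 3667 in control, 2244 to 2878 in HFD-EPA/DHA and 4062 to 4346 in HFD-corn oil mice at 8 weeks and from 3115 to 3706, 2438 to 3095 and 3384 to 4139 at 12 weeks. Without Fabp2 the other 9 summed to 1106 to 1253, 1129 to 1216 and 1086 to 1274 at 8 weeks and to 1129 to 1208, 1093 to 1235 and 1158 to 1196 at 12 weeks, with overlap of all diets. Of 15 measured clock genes 0 were called by limma. At 8 weeks 10 had an unadjusted p under 0.05 in HFD-EPA/DHA mice (median −0.49), against 8.05% of all probe sets. At 12 weeks 8 did in HFD-corn oil mice (median 0.39), against 8.53% of all probe sets. Clock genes also differed between the control groups, with 14 at an unadjusted p under 0.05 for 12 vs. 8 weeks (median −0.75), against 6.89% of all probe sets. The paper states that food was removed in the early morning and that mice were killed later in the morning, on consecutive days. Each day's mice came from some of the diet groups, not all. The day and hour of each mouse are not given in the sample labels. The part of killing time, or of the cell, sex, zonation and clock measures, in the members' differences was not tested.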

How the data were processed

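RNA from 24 livers was measured on 1-colour Affymetrix arrays (Mouse Gene 2.0 ST). The authors background-corrected, summarised (iter-PLIER, perfect match probes) and quantile normalized the signals in Expression Console, and the deposited values were read as log2 signals from their range (4.39 to 13.93), since the scale is not named in the table. The genome build of the array design is not given in the sources used here. Probe sets were named from the platform annotation: 23521 carried 1 gene symbol, 1820 several and 16004 none. Of the members, none had more than 1 probe set, and 9 further probe sets with several symbols matched the rule. limma (version 3.58.1, R 4.3.3) was fitted to 23 arrays with 1 mean per group, no covariate and 15 two-sided contrasts, with an adjusted p threshold of 0.05 and 95% intervals. The script was tested on simulated data. The paper states that mice were caged in groups, and which array mice shared a cage is not given. The p-values set each difference against the spread between mice of a group, which may leave out differences between cages. The number of arrays limits the precision.

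The members and gene lists were chosen with earlier results of these data known. Members were named if called, or if they had the largest positive or negative difference of their family in a comparison of diets at 1 time. Probe sets with several symbols were named after their values were seen. Alternatives were all 24 arrays, each array left out, 1-symbol probe sets only, members above the median only, median centring, repeated quantile normalization, 16 added before log2, the mean over all probe sets of a gene, separate fits per week, trended and robust variance, and the replicate number as a block. They were run for the listed genes and for probe sets with several symbols too, which was chosen after seeing the data. Promoters came from RefSeq (GRCm38.p6), and positions count from the start site. Figures were drawn with matplotlib (version 3.10.9).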

Additional observations from a re-analysis of the deposited data

Results flagged for a closer look

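In 3 of 80 groups of 4 mice, taken over the 16 named members, 1 mouse lay far from the others, and chance flags about 1 in 20 groups. Sult1c2 read 7.25 in HFD-EPA/DHA replicate 2 at 8 weeks, with the other mice of the group at 8.17 to 8.28. Sult6b1 read 5.40 in HFD-corn oil replicate 4 at 12 weeks, with the others at 5.74 to 5.77. Ugt2b38 read 8.59 in control replicate 2 at 12 weeks, with the others at 7.21 to 7.30. The array left out of the fit, HFD-corn oil replicate 3 at 8 weeks, read 10.64 for Gsta4, above all control mice of that time (9.94 to 10.62), as did the other HFD-corn oil mice. No cause was tested for these values.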

How the results depend on the processing

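The array left out of the fit changed most. With all 24 arrays, the number of called members was 0 in HFD-EPA/DHA and 0 in HFD-corn oil mice at 8 weeks, 0 in HFD-EPA/DHA mice at 12 weeks, and 3 and 0 over both times. The Ugt median was then −0.14 for HFD-corn oil vs. control and 0.38 between the HFDs at 8 weeks, −0.046 and 0.28 over both times, 0.32 and −0.24 for the changes from 8 to 12 weeks of these comparisons, and 0.15 for 12 vs. 8 weeks of HFD-corn oil. The Sult median for HFD-corn oil vs. control at 8 weeks was −0.029, Sult1b1 there was −0.029, and Ugt3a1 between the HFDs was 0.014. Fits per week called 1 member in HFD-EPA/DHA and 0 in HFD-corn oil mice at 8 weeks, and 0 in HFD-EPA/DHA mice at 12 weeks. In HFD-corn oil mice at 8 weeks, median centring and the trended and robust variance called 2 each. In HFD-EPA/DHA mice at 12 weeks, 1-symbol probe sets gave 2 and repeated quantile normalization 0. Replicate numbers did not mark pairs (correlation of same-numbered mice −0.31 to 0.26 over 55 pairs). The replicate block called 1 member in HFD-EPA/DHA mice at 8 weeks and 0 at 12 weeks. With members above the median only, the Sult median was 0.060 in HFD-EPA/DHA mice at 8 weeks, 0.17 in HFD-corn oil mice and −0.16 between the HFDs at 12 weeks, 0.10 for HFD-corn oil over both times, 0.15 for its change and −0.11 for control mice between the times. Leaving out 1 array, calls ranged from 0 to 3 with HFD-EPA/DHA and 0 to 1 with HFD-corn oil at 8 weeks, 0 to 1 with HFD-EPA/DHA at 12 weeks, and 5 to 6 and 2 to 5 over both times (2 without HFD-corn oil replicate 1 at 8 weeks). The median change from 8 to 12 weeks ranged from 0.091 to 0.23 for Gst and −0.11 to 0.022 for Sult with HFD-EPA/DHA, and from 0.011 to 0.099 for Sult with HFD-corn oil. Direction reversed, far from the threshold, for Ugt2b1 at 8 weeks with HFD-EPA/DHA (0.016 without control replicate 1 and 0.021 without HFD-EPA/DHA replicate 4, in a range from −0.075), Ugt2b38 at 12 weeks with HFD-EPA/DHA (0.12 without control replicate 2, in a range from −0.48) and Sult6b1 between the HFDs at 12 weeks (−0.0074 without HFD-EPA/DHA replicate 2). The cause of these shifts was not tested. Dim members, most of them Sult genes, have the least signal over background.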
